A study of Mus musculus with 12 samples.

Results

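Embryoids at day 7 (D7) were compared with controls of the same day across all genes with a mean above 1 TPM, the transcript share scaled to a fixed library total, in either group, with attention to tissues and pathways other than the marker genes that the study itself named. The comparison used 3 embryoid and 3 control libraries, and 13115 of the 24946 genes in the expression table passed the filter. For an embryoid, an untreated aggregate of 100 mouse embryonic stem cells was joined on D3 to a 50-cell aggregate that had been incubated in BMP4 (10 ng/ml per the labels) for 8 h. Controls joined untreated aggregates of 50 and 100 cells on D3. By the labels every library came from E14TG2a, an embryonic stem cell line of the 129/ola strain, and held RNA from a pool of 12 embryoids or controls. The sources differ on the unit of the BMP4 concentration and on the number pooled.

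BMP4 is a secreted ligand of the TGF-beta superfamily. In the early mouse embryo it is made by extraembryonic tissue and acts on the epiblast, where it is needed for mesoderm, and aggregates of embryonic stem cells left without such a signal in serum-free medium tend towards anterior neural tissue. A cell cluster that receives the signal can act as an organizer for its neighbours through the WNT and Nodal ligands that it starts to make. The libraries are bulk RNA of whole structures, so fewer cells of a type and less RNA per cell cannot be told apart in any value below.

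The libraries of a group resembled each other more than those of the other group, and Hprt, a gene that bears on the labelled line, differed between the groups. Over the tested genes Pearson's r lay between 0.977 and 0.984 among embryoids, between 0.988 and 0.989 among controls and between 0.883 and 0.905 across the groups. Genes above 0 numbered 13589 to 13767 in embryoids and 13302 to 13346 in controls, and the summed share of cytosolic ribosomal protein genes was 16.1 to 18.7% in embryoids and 12.8 to 13.4% in controls. Hprt, the purine salvage enzyme that E14TG2a is generally described as lacking, was listed at 1, 1 and 1 TPM in embryoids, against 35, 34 and 36 TPM in controls. The library names begin with E14 for embryoids and with WT for controls, so a difference of line or clone and the BMP4 treatment cannot be told apart in any comparison below. A 0 in a single library need not mean absence either: Tgoln2, a trans-Golgi gene used by most cells and picked here for these values, stood at 29, 0 and 30 TPM in embryoids, against 23, 31 and 32 TPM in controls. Depth is unknown because TPM keeps none.

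At D7, 1053 genes were called higher and 1148 lower in embryoids (8.03% and 8.75% of the tested genes), at a Benjamini-Hochberg adjusted p under 0.05 from limma and an absolute log2 fold change above 1 on the log2(TPM + 1) scale. Fold changes of genes with low values are understated on this scale. The genes called higher made up 3.49% of all TPM in embryoids and 0.863% in controls, and those called lower 1.39% in embryoids and 4.49% in controls. Of the genes called higher, 480 were listed at 0 in every control library, and of those called lower, 138 were listed at 0 in every embryoid library. Such genes passed the filter through 1 group alone and could move in 1 direction only. Over all tested genes the median log2 difference was -0.20. With median-of-ratios scaling it was 0.01 over the same 13115 genes, with 1220 called higher and 861 lower, so that 58.6% instead of 47.8% of the calls were higher. Filtering after the scaling left 13688 genes, with 1431 higher and 861 lower (62.4% higher) and a median of 0.03.

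**Figure D1:**
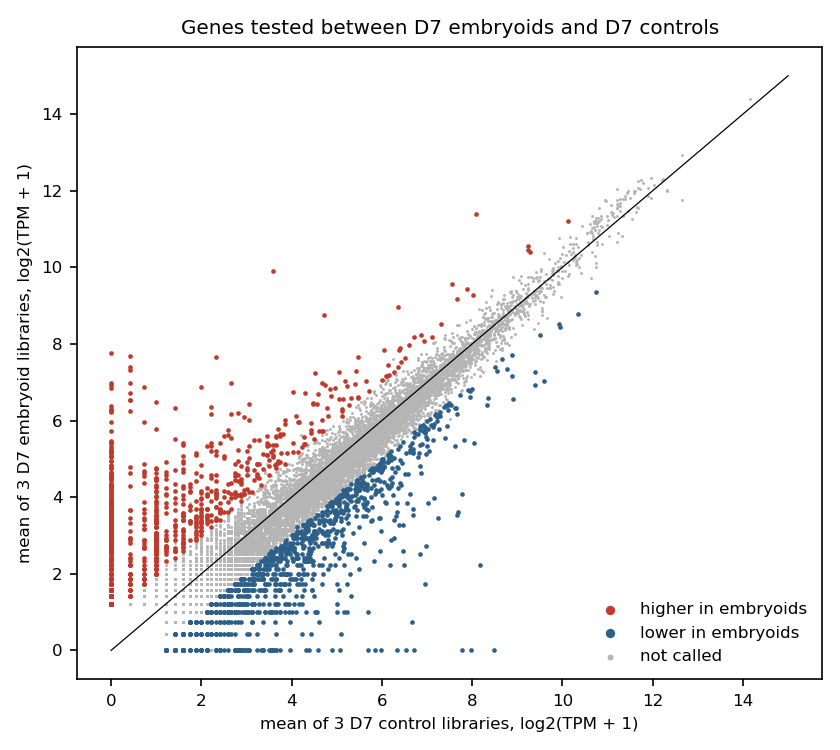
Mean value of each of the 13115 tested genes in the 3 D7 embryoid libraries (vertical axis) and in the 3 D7 control libraries (horizontal axis), both as log2(TPM + 1), with 1053 genes called higher in red, 1148 called lower in blue and the diagonal as a line. A column of red points at 0 on the horizontal axis holds the 480 higher genes that were listed at 0 in every control.

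The genes that the study's figures name were left out of the gene lists and of the largest changes, but not of the comparison with D8, which brought in Pax6 and Hba-a1. Among the others, the largest increases included Hox genes, noncoding transcripts of the Hox clusters and matrix genes. Hoxb9, a posterior homeobox factor, was at 124, 113 and 136 TPM in embryoids and was listed at 0 in every control. Hoxb5os, a noncoding gene of the same cluster, was at 109, 136 and 120 TPM in embryoids, and Mira, a noncoding gene of another Hox cluster, was at 133, 117 and 93 TPM. Both were listed at 0 in every control, and both overlap or adjoin Hox genes whose reads cannot be told apart from theirs without strand. Tgfbi, a secreted matrix protein, was at 68, 55 and 60 TPM in embryoids and listed at 0 in controls, and Sparcl1, a secreted matrix glycoprotein, was at 90, 76 and 100 TPM in embryoids, against 1, 1 and 1 TPM in controls (log2 fold change 5.48, standard error 0.11, adjusted p = 7.23e-12 from limma).

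The largest decreases included genes of the dorsal forebrain and of neural cells. Rspo2, which encodes a secreted enhancer of WNT signalling, was listed at 0 in every embryoid library, against 339, 373 and 359 TPM in controls. Mir9-3hg, the host transcript of a microRNA of neural progenitors, was listed at 0 in embryoids, against 53, 64 and 52 TPM in controls, and Dmrta2, a transcription factor that patterns the dorsomedial telencephalon, was listed at 0, against 29, 35 and 34 TPM. Cntnap2, an axonal membrane protein of the neurexin family, was at 5, 6 and 6 TPM in embryoids, against 125, 127 and 125 TPM in controls (log2 fold change -4.25, standard error 0.19, adjusted p = 6.23e-09). Mlc1, a membrane protein of astrocytes and radial glia, was at 1, 1 and 1 TPM in embryoids, against 48, 53 and 52 TPM in controls.

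**Figure D2:**
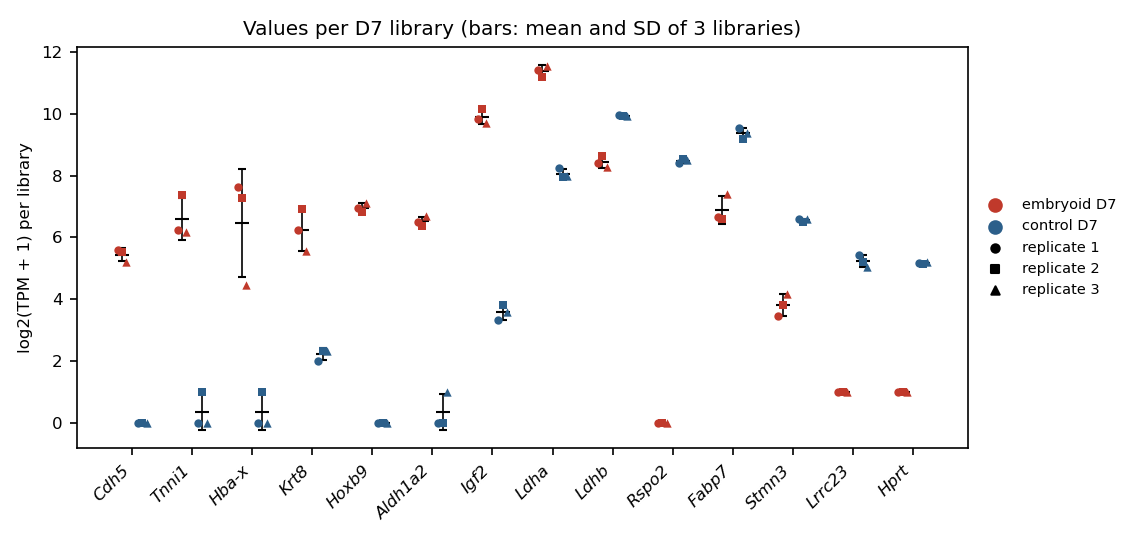
Values of 14 genes in each D7 library as log2(TPM + 1), with embryoids in red to the left of controls in blue, 1 symbol per replicate and bars for the mean and SD of 3 libraries. Hba-x spreads most among embryoids (199, 154 and 21 TPM), and Tnni1 and Krt8 are highest in embryoid replicate 2 (165 and 121 TPM). No gene shown overlaps between the groups, but the 14 were picked from genes named mostly for large differences. Over all tested genes, 19.4% had every embryoid above every control and 43.4% every embryoid below.

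Genes of blood vessels rose in embryoids. Of 29 tested genes of blood vessel endothelium, 24 were called higher and none lower, with a median log2 fold change of 2.66 beside -0.20 over all tested genes, and 19 of the 29 were listed at 0 in every control. Cdh5, the adhesion molecule of endothelial junctions, was at 47, 45 and 36 TPM in embryoids and at 0 in every control. Cd34, a surface glycoprotein of endothelium and blood progenitors, was at 38, 31 and 34 TPM in embryoids, and Ecscr, another endothelial surface protein, at 21, 27 and 18 TPM, both listed at 0 in controls. Lmo2, an adaptor in transcription complexes of blood and vessel precursors, was not called, with 12, 13 and 11 TPM in embryoids, against 13, 14 and 12 TPM in controls. The summed level of the list was 317 to 374 TPM in embryoids and 35 to 40 TPM in controls.

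Genes for the ligands and guidance receptors of vessels went the same way in 11 of 17 tested cases, with 1 lower, and 6 of the 17 were listed at 0 in every control. Cxcl12, a chemokine, was at 130, 108 and 112 TPM in embryoids, against 3, 3 and 3 TPM in controls (log2 fold change 4.87, standard error 0.15, adjusted p = 3.28e-10 from limma). Its receptor Cxcr4 was the exception and fell to 17, 16 and 20 TPM in embryoids, against 50, 44 and 48 TPM in controls (log2 fold change -1.38). Aplnr, the apelin receptor, was at 28, 26 and 24 TPM in embryoids and at 0 in every control. Nrp2, a co-receptor of VEGF and semaphorins, was at 50, 32 and 52 TPM in embryoids, against 1, 2 and 2 TPM in controls.

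Blood genes were few, and their values were uneven among embryoids. Of 12 tested genes of primitive red blood cells, 4 were called higher. Hba-x, the embryonic zeta-like alpha globin, was at 199, 154 and 21 TPM in embryoids, against 0, 1 and 0 TPM in controls (log2 fold change 6.13, standard error 0.79, adjusted p = 6.45e-05). Hbb-y, an embryonic beta-like globin, was at 50, 31 and 6 TPM in embryoids, against 1, 1 and 2 TPM in controls, so replicate 3 was the lowest embryoid for both. Hba-a1 was at 48, 67 and 10 TPM in embryoids, against 2, 1 and 3 TPM in controls, but its near-identical copy Hba-a2, also picked for its values, was listed at 42, 0 and 0 TPM in embryoids and the division of reads between the copies is uncertain. Of 20 white cell and platelet genes, only 4 passed the filter, of which 3 were called higher (1 without embryoid replicate 1) and 1 lower. Laptm5, a lysosomal protein of blood cells, was at 3, 2 and 2 TPM in embryoids and at 0 in controls. Coro1a, an actin regulator of leukocytes, fell to 4, 4 and 5 TPM in embryoids, against 13, 12 and 13 TPM in controls.

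Muscle genes rose in the heart and smooth muscle lists. Heart muscle had 15 of 18 tested genes called higher and none lower (median log2 fold change 2.31), 9 of the 18 were listed at 0 in every control, and with a pseudocount of 5 the 15 became 9. Tnni1, the troponin I of slow and embryonic striated muscle, was at 74, 165 and 71 TPM in embryoids, against 0, 1 and 0 TPM in controls (log2 fold change 6.26, standard error 0.38, adjusted p = 2.55e-07). Myl3, a ventricular myosin light chain, was at 27, 60 and 36 TPM in embryoids and listed at 0 in controls, and Tnnc1, the slow troponin C, was at 34, 90 and 39 TPM, against 1, 1 and 1 TPM. In all of them embryoid replicate 2 was the highest. Tnni3, the adult cardiac troponin I, did not follow, with 7, 11 and 8 TPM in embryoids, against 15, 13 and 12 TPM in controls (log2 fold change -0.58, adjusted p = 0.0498, under the fold threshold). In the skeletal muscle list 14 of 20 genes were listed at 0 in every control, as were 16 of 26 in the heart muscle list. Only 6 skeletal muscle genes were tested, 1 of them at 0 in every control, and 3 were called higher.

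In smooth muscle and pericytes, 10 of 14 tested genes were called higher and none lower, with a median log2 fold change of 1.79. Of the 14, 5 were listed at 0 in every control, and 6 were higher with a pseudocount of 5. Acta2, the smooth muscle actin, was at 66, 118 and 54 TPM in embryoids, against 1, 2 and 2 TPM in controls (log2 fold change 4.86, standard error 0.28, adjusted p = 7.6e-08), and Pdgfrb, the platelet-derived growth factor receptor of pericytes, was at 35, 25 and 30 TPM in embryoids and at 0 in controls. Cartilage, bone and sclerotome genes gave 8 higher and 1 lower of 12 tested, and 3 higher with a pseudocount of 5, and 6 of the 12 were listed at 0 in every control. Col9a1, a cartilage collagen chain, was at 17, 17 and 14 TPM in embryoids and at 0 in controls, and Alx1, a homeobox factor of craniofacial mesenchyme, was at 9, 10 and 8 TPM in embryoids and at 0 in controls. Sox9, the cartilage transcription factor that neural tissue also uses, fell to 3, 2 and 3 TPM in embryoids, against 9, 10 and 9 TPM in controls, and Col2a1 was not called (36, 27 and 47 TPM in embryoids, 37, 39 and 37 TPM in controls). Kidney and gonad genes were divided, with 8 of 14 tested higher and 5 lower, and with a filter above 5 TPM the 8 became 3 and the median of 1.16 turned to -0.99. Of the 14, 6 were listed at 0 in every control and 2 at 0 in every embryoid library. Sall1, a zinc finger factor, rose to 126, 86 and 105 TPM in embryoids, against 13, 17 and 16 TPM in controls, whereas Emx1 and Eya4 fell. Each of these genes is also used outside kidney and gonad.

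Many epithelial genes outside the nervous system rose as well, but not all. In the list of epithelial junctions and keratins, 13 of 21 tested genes were higher and 1 was lower (median log2 fold change 1.57), or 7 higher with a pseudocount of 5. Cdh1, an epithelial cadherin of this list and of the gut tube list, was not called. It was at 26, 24 and 18 TPM in embryoids, against 34, 38 and 36 TPM in controls (log2 fold change -0.66). Of 6 tested claudin genes, 2 were higher and none lower (median log2 fold change 0.03). Krt8, a simple epithelial keratin, was at 74, 121 and 46 TPM in embryoids, against 3, 4 and 4 TPM in controls (log2 fold change 4.02, standard error 0.35, adjusted p = 3.96e-06), and its partner Krt18 was at 66, 101 and 45 TPM, against 5, 6 and 5 TPM. The same keratins are members of the gut tube list (8 of 17 tested higher, 1 lower) and the epicardium list (8 of 10 higher), so these counts are not independent. In each of the gut tube and epicardium lists the 8 became 5 with a pseudocount of 5 or with a filter above 5 TPM. In the surface ectoderm and epidermis list, 10 of 13 tested genes were higher (4 with a pseudocount of 5) and 1 was lower. Of the 13, 6 were listed at 0 in every control and 1 at 0 in every embryoid library. Cdh3, an epithelial cadherin, was at 22, 23 and 10 TPM in embryoids, against 1, 1 and 1 TPM in controls, and Esrp1, an epithelial splicing regulator, was at 8, 7 and 6 TPM in embryoids and at 0 in controls. The secreted proteins of liver and visceral endoderm did not rise as a group, with 1 higher and 2 lower of 5 tested and 13 of 20 listed at 0 in every control. Ttr, a carrier protein of visceral endoderm, liver and choroid plexus, was at 1, 11 and 1 TPM in embryoids, against 20, 21 and 20 TPM in controls.

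**Figure D3:**
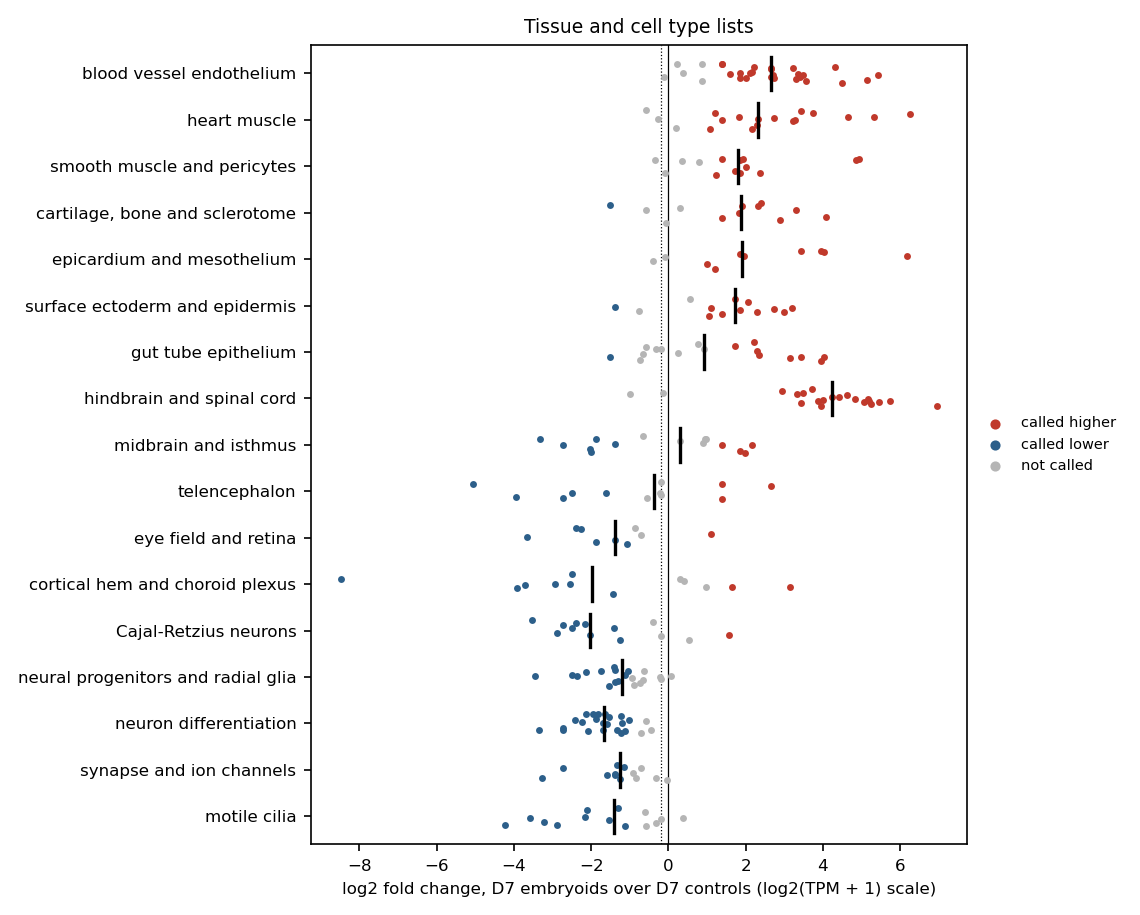
Log2 fold change (D7 embryoids over D7 controls, log2(TPM + 1) scale) of the tested genes of 17 tissue lists, 1 point per gene, red where called higher, blue where called lower and grey where not called, with a bar at each list's median and a dotted line at the median of all tested genes (-0.20). The lists from endothelium to hindbrain have medians from 0.93 (gut tube) to 4.24 (hindbrain and spinal cord), and those from eye field to motile cilia lie between -1.21 and -2.03.

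Along the neural axis, 19 of 21 tested hindbrain and spinal cord genes were higher in embryoids and none lower, most of them Hox genes. As 19 of the 21 were listed at 0 in every control, these could not have been lower, and the list's median of 4.24 reflects that. Among 29 tested Hox genes, 28 were called higher, and the remaining one, Hoxd11, was at 6, 1 and 0 TPM in embryoids. All 37 Hox genes considered were listed at 0 in every control, so none could have been lower. Hoxc10 was at 99, 62 and 69 TPM in embryoids, Hoxb8 at 53, 51 and 52 TPM and Hoxa9 at 47, 38 and 42 TPM. Some posterior members were highest in embryoid replicate 1. Hoxa11 was at 9, 2 and 2 TPM and Hoxd10 at 22, 10 and 8 TPM.

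The midbrain list was divided, with 4 of 15 tested genes higher and 6 lower, with 7 higher after median-of-ratios scaling and 3 lower with a pseudocount of 5. Tal2, a bHLH factor of midbrain inhibitory neurons, fell to 7, 6 and 7 TPM in embryoids, against 88, 66 and 73 TPM in controls (log2 fold change -3.31, standard error 0.18, adjusted p = 2.75e-08 from limma). Gbx2, a homeobox factor of the anterior hindbrain and thalamus, was at 11, 8 and 12 TPM in embryoids and at 0 in controls. In the telencephalon list, 3 of 12 tested genes were higher and 5 lower, and in the eye field and retina list 1 of 9 was higher and 6 were lower. In the diencephalon and hypothalamus list, 2 of 10 were higher and 3 lower. Of the 12 telencephalon genes, 4 were listed at 0 in every embryoid library and 3 at 0 in every control. Of the 9 eye field and retina genes, 2 were listed at 0 in every embryoid library. Six3os1, the antisense partner of a forebrain homeobox gene, was listed at 0 in embryoids, against 10, 13 and 12 TPM in controls. The counting is not stated to use strand, so the value of Six3os1 may include reads of its partner.

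Several genes known from the cortical hem, a signalling centre of the dorsal telencephalon, fell in embryoids. Of 12 tested hem and choroid plexus genes, 7 were lower and 2 higher (median log2 fold change -1.97). Rspo3, a WNT enhancer like Rspo2, was at 20, 16 and 12 TPM in embryoids, against 216, 218 and 218 TPM in controls (log2 fold change -3.71, standard error 0.13, adjusted p = 8.87e-10), and Folr1, a folate receptor, was at 2, 2 and 1 TPM in embryoids, against 39, 39 and 38 TPM. The 2 higher members were Msx1, a homeobox target of BMP in many tissues, at 16, 17 and 17 TPM in embryoids, against 1, 1 and 1 TPM in controls, and Enpp2, the enzyme autotaxin, at 6, 5 and 5 TPM, against 1, 1 and 1 TPM. Among 13 tested genes of Cajal-Retzius neurons, which pioneer the cortical surface, 9 were lower and 1 higher. Of the 13, 4 were listed at 0 in every embryoid library, so these could not have been higher. Trp73, a p53 family member of these cells, was listed at 0 in embryoids, against 10, 12 and 10 TPM in controls. Reln, the secreted protein that defines these neurons, was at 1, 1 and 1 TPM in embryoids, against 1, 1 and 2 TPM in controls, and was not called.

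Genes of neural progenitors and neurons fell in embryoids without a single member called higher. Of 20 tested progenitor genes, 12 were lower (median log2 fold change -1.21). Fabp7, the lipid-binding protein of radial glia, was at 100, 95 and 168 TPM in embryoids, against 750, 584 and 670 TPM in controls (log2 fold change -2.50, standard error 0.21, adjusted p = 2.95e-06). Ttyh1, a membrane protein of progenitors, was at 3, 2 and 5 TPM in embryoids, against 42, 46 and 45 TPM in controls, and Vim, the intermediate filament vimentin, was at 640, 687 and 633 TPM, against 1667, 1752 and 1700 TPM. In the neuron differentiation list, 21 of 24 tested genes were lower (median log2 fold change -1.67) and all 24 had every embryoid below every control, as did 43.4% of all tested genes. Stmn3, a microtubule regulator of neurons, was at 10, 13 and 17 TPM in embryoids, against 95, 89 and 95 TPM in controls. Gap43, a growth cone protein, was not called, with 112, 100 and 124 TPM in embryoids, against 198, 167 and 187 TPM in controls. Embryoid replicate 3 was the highest embryoid library for Fabp7, Ttyh1, Stmn3 and Gap43. Synapse and ion channel genes had 8 of 13 tested lower and none higher, and the 8 became 3 with a filter above 5 TPM.

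Several genes of motile cilia fell in embryoids. Multiciliated cells, such as those of the choroid plexus and ependyma, switch on this programme through the regulators Gmnc and Mcidas and the RFX factors. Of 14 tested genes, 9 were lower and none higher (median log2 fold change -1.42), and 5 were not called. Of the 14, 3 were listed at 0 in every embryoid library. In a family list of dynein and cilia-and-flagella genes, 4 of 14 tested were lower and none higher (median log2 fold change -0.60). Lrrc23, a component of the ciliary radial spoke, was at 1, 1 and 1 TPM in embryoids, against 42, 36 and 32 TPM in controls (log2 fold change -4.23, standard error 0.15, adjusted p = 9.82e-10). Ccno, a cyclin-like protein needed to multiply basal bodies, was listed at 0 in embryoids, against 11, 12 and 10 TPM in controls, and Gmnc at 0, against 8, 9 and 8 TPM. Mcidas, which lies close to Ccno and was likewise picked for its values, was listed at 0, against 7, 6 and 6 TPM. The groups did not overlap for any of these 4 genes, but Lrrc23, Ccno and Gmnc were named for large decreases and Mcidas for its values. Over all tested genes, 43.4% had every embryoid below every control. Tppp3, a tubulin-binding protein, was not called (29, 32 and 42 TPM in embryoids, 42, 37 and 38 TPM in controls).

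RFX factors are known to bind sequences that hold GTTGCCA. The promoters of Lrrc23, Mcidas and Ccno are shown because they hold those letters and their genes were lower in embryoids. They were picked for both, so they do not show how often the letters go with a fall. The windows run from 250 bases before to 50 bases after the RefSeq start (GRCm38.p6, the assembly of the authors' mm10 build), 5′ to 3′ on the gene's strand, with GTTGCCA or its reverse complement in capitals. Lrrc23 lies at chr6:124779678-124779977 on the minus strand, and Mcidas (chr13:112993618-112993917) and Ccno (chr13:112987552-112987851) lie on the plus strand.
Lrrc23: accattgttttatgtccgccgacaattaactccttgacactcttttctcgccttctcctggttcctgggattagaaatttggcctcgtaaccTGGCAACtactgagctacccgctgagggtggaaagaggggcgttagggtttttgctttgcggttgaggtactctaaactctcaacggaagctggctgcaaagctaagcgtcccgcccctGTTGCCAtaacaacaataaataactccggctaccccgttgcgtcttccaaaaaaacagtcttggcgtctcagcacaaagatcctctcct
Mcidas: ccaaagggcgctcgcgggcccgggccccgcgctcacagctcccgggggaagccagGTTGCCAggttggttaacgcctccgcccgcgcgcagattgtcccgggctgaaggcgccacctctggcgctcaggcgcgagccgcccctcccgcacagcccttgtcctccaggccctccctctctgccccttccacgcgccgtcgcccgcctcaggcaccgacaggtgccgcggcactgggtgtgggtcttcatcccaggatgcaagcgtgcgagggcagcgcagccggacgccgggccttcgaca
Ccno: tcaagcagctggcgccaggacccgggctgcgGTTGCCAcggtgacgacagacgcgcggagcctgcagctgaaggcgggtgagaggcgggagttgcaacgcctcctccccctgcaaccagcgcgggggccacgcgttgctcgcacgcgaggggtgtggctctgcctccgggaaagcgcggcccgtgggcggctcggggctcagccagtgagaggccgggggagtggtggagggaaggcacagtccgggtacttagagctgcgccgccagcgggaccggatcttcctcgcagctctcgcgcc
Lrrc23 held 2 matches and the others 1 each. On either strand GTTGCCA occurred in 4 of 12 motile cilia promoters (33.3%), and in 5.48% of 857 promoters of genes called lower, 1.81% of 718 promoters of genes called higher and 3.83% of all 10030 tested genes with a promoter sequence. A match of letters is a description and not a site.

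Genes of glycolysis were mostly higher in embryoids. Of 21 tested glycolysis genes, 11 were higher and 1 was lower, with a median log2 fold change of 1.07, and their summed level was 16176 to 19298 TPM in embryoids and 10104 to 10458 TPM in controls. Ldha, the lactate dehydrogenase subunit that favours lactate production, was at 2773, 2329 and 2998 TPM in embryoids, against 304, 248 and 254 TPM in controls (log2 fold change 3.32, standard error 0.20, adjusted p = 2.06e-07 from limma). Ldhb, the other subunit, was the member that fell, to 337, 393 and 307 TPM in embryoids, against 992, 987 and 971 TPM in controls (log2 fold change -1.51, standard error 0.08, adjusted p = 1.93e-08). Slc16a3, the lactate exporter, was at 65, 53 and 83 TPM in embryoids, against 8, 6 and 6 TPM in controls. Pdk1, the kinase that restrains pyruvate entry into mitochondria, was at 42, 20 and 46 TPM, against 7, 7 and 7 TPM. Gapdh and Pkm, the most abundant members that were not called, were at 3104, 3354 and 3145 TPM and at 2206, 1942 and 2387 TPM in embryoids, against 2410, 2401 and 2307 TPM and 1841, 1873 and 1831 TPM in controls. Eno1 and Eno1b share near-identical sequence, so their values (2563, 1920 and 2580 TPM, and 1379, 1434 and 1396 TPM, in embryoids) are uncertain as single genes.

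The promoter of Ldha (chr7:46845554-46845853, plus strand) is shown because this gene has the largest fold of the list and holds CACGTG, the palindrome bound by MYC and other bHLH factors, 2 times (capitals).
Ldha: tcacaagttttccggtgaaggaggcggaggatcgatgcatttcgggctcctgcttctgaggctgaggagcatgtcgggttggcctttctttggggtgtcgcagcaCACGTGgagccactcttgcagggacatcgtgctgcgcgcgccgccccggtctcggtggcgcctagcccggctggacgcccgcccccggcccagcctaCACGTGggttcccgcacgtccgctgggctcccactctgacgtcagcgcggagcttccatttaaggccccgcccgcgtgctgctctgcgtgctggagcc
CACGTG occurred in 10.0% of 20 glycolysis promoters and 10.4% of all tested promoters, and the shares were 8.77% for genes called higher and 5.72% for genes called lower. GATAA, a core bound by GATA factors, was in 22.7% of promoters of genes called higher, 14.0% of those called lower and 15.3% of all. GGAAGT, an ETS core, was in 21.4%, 16.1% and 27.3% in the same order, CCAAT in 35.9%, 37.6% and 39.6%, and TAATTA, a homeodomain core, in 3.2%, 2.8% and 2.29%. All were sought on both strands.

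Stress and growth programmes differed among themselves. Hypoxia response genes were higher in 8 of 20 tested cases and lower in none (median log2 fold change 0.82), or higher in 4 with a pseudocount of 5, and Pdk1 is also in the glycolysis list. P4ha2, a collagen prolyl hydroxylase, was at 43, 37 and 45 TPM in embryoids, against 9, 12 and 9 TPM in controls. The amino acid stress response had 9 of 23 higher and 1 lower (median log2 fold change 0.72), with Psat1, an enzyme of serine synthesis, at 587, 496 and 631 TPM in embryoids, against 207, 191 and 203 TPM in controls (log2 fold change 1.50, standard error 0.10, adjusted p = 2.28e-07). No gene of 18 tested in the unfolded protein response was called in limma, although 2 had every embryoid above every control and 10 every embryoid below (19.4% and 43.4% of all tested genes). Of 23 tested p53 targets and apoptosis genes, 2 were lower and none higher, a share near the 8.75% of all tested genes. Of 34 tested cell cycle genes, Ccnd1, the cyclin of growth factor response, was the 1 called higher (193, 167 and 228 TPM in embryoids, 94, 86 and 92 TPM in controls), and Cdkn2c, a CDK inhibitor, the 1 called lower (1, 1 and 1 TPM in embryoids, 11, 11 and 10 TPM in controls). Without embryoid replicate 3 the log2 fold change of Ccnd1 was 0.98, under the fold threshold. A count of 1 of 34 in each direction is under the 8.03% and 8.75% of all tested genes. Of 24 tested cholesterol synthesis genes, 2 were higher and none lower, near the 8.03% of all tested genes.

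**Figure D4:**
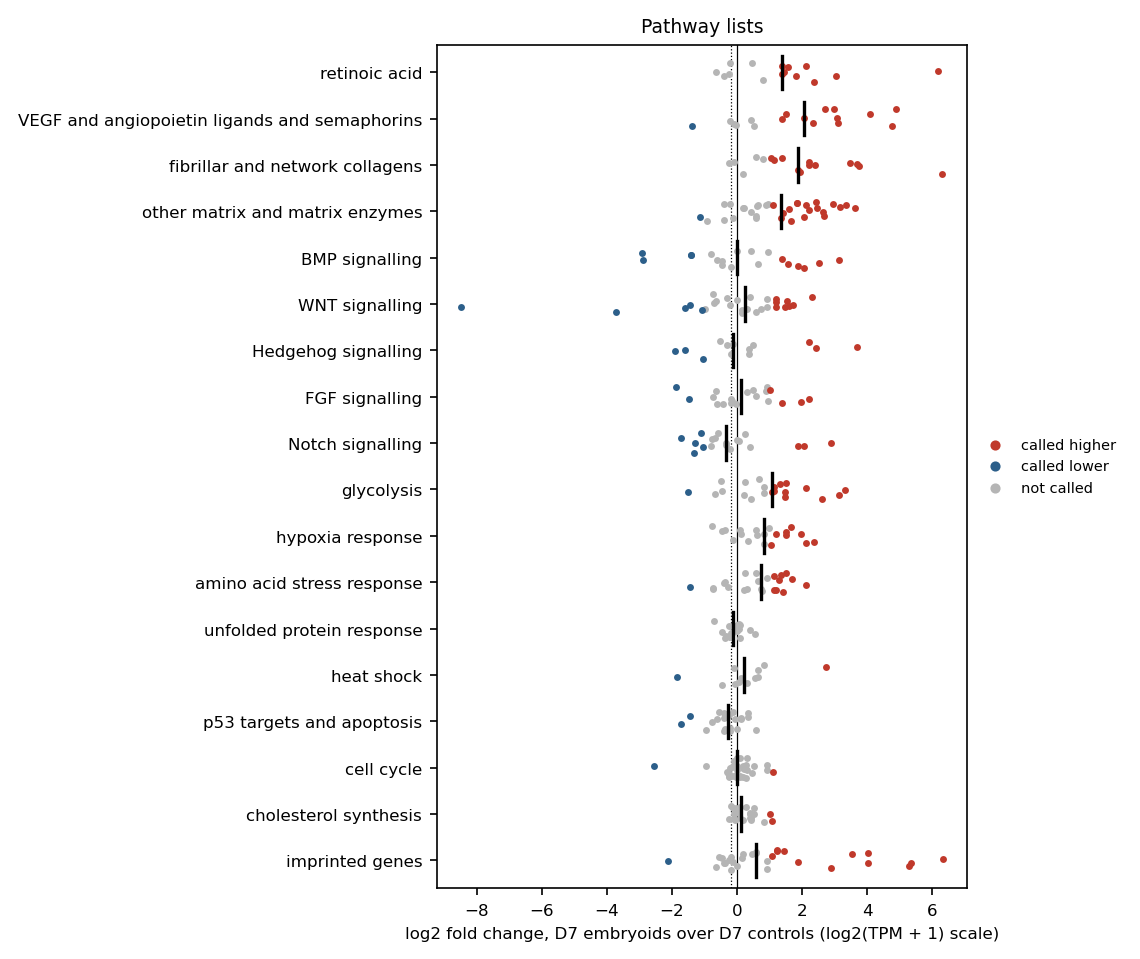
Log2 fold change (D7 embryoids over D7 controls, log2(TPM + 1) scale) of the tested genes of 18 pathway lists, drawn as in the plot of tissue lists. Glycolysis has 11 red points and a median of 1.07, whereas the unfolded protein response has no coloured point and the cell cycle list has 2.

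Genes that are imprinted, that is expressed from 1 parental copy, rose in 12 of 30 tested cases and fell in 1 (median log2 fold change 0.58). Igf2, a fetal growth factor, was at 912, 1145 and 829 TPM in embryoids, against 9, 13 and 11 TPM in controls (log2 fold change 6.33, standard error 0.20, adjusted p = 1.68e-09 from limma). H19, the noncoding gene beside it, was at 288, 150 and 167 TPM in embryoids, against 3, 3 and 6 TPM in controls, so both genes of a locus that is usually read from opposite parental copies were higher. Grb10, an adaptor that restrains growth, was at 407, 400 and 483 TPM in embryoids, against 26, 27 and 23 TPM in controls. Nnat, a neuronal proteolipid, was the member that fell, to 143, 151 and 163 TPM in embryoids, against 643, 696 and 672 TPM in controls. Among other genes of insulin-like growth factor signalling, Gpc3, a growth-restraining glypican, rose to 518, 513 and 453 TPM, against 78, 84 and 81 TPM, and Igfbp2, a binding protein, fell to 95, 102 and 85 TPM, against 480, 478 and 467 TPM. The DNA-bending proteins Hmga2 (253, 192 and 234 TPM in embryoids, 48, 73 and 75 TPM in controls) and Hmga1 were the 2 chromatin genes called, of 20 tested. That share is near the 8.03% called higher over all tested genes, and the list's median log2 fold change was -0.30. For 8 of the 20 every embryoid lay below every control, as for 43.4% of all tested genes.

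Many matrix genes rose in embryoids. Of 17 tested fibrillar and network collagens, 12 were higher and none lower (median log2 fold change 1.86), 7 of the 17 were listed at 0 in every control, and 6 were higher with a pseudocount of 5. Col3a1 was at 79, 85 and 68 TPM in embryoids and at 0 in controls, Col1a2 at 28, 27 and 23 TPM, against 1, 1 and 1 TPM, and Col1a1 at 13, 11 and 12 TPM, against 0. Among 33 other matrix genes and matrix enzymes, 18 were higher and 1 lower. Emilin1, an elastic fibre protein, was at 25, 25 and 21 TPM in embryoids, against 1, 1 and 1 TPM in controls, and Fbn2, a fibrillin, at 23, 16 and 29 TPM, against 1, 2 and 1 TPM. Thbs1, thrombospondin 1, was the lower member (5, 3 and 5 TPM in embryoids, 8, 13 and 11 TPM in controls). Transition factors were divided: Snai1 and Snai2, repressors of epithelial genes, rose (6, 4 and 6 TPM, against 0 in controls, and 17, 14 and 12 TPM, against 2, 2 and 2 TPM), while 3 of 12 tested members fell, namely Vim, Sox9 and Cdh2, the cadherin of neural tissue and heart.

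Among signalling lists, retinoic acid had 9 of 15 tested higher (4 with a pseudocount of 5) and none lower. Aldh1a2, which makes retinoic acid, was at 89, 82 and 102 TPM in embryoids, against 0, 0 and 1 TPM in controls, the receptor Rarg was at 30, 22 and 20 TPM, against 2, 2 and 2 TPM, and the degrading enzyme Cyp26a1 was at 6, 3 and 4 TPM, against 0. Crabp1, which binds retinoic acid in the cytoplasm, rose to 601, 672 and 789 TPM, against 285, 181 and 237 TPM, but Crabp2 was not called (915, 1130 and 1244 TPM in embryoids, 1738, 1715 and 1671 TPM in controls, log2 fold change -0.65, adjusted p = 0.000553, under the fold threshold).

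In BMP signalling, 6 of 19 tested genes were higher (3 with a pseudocount of 5) and 4 lower, with a median that was -0.01 and turned positive, 0.20, after median-of-ratios scaling. The targets Msx1 and Msx2 and the extracellular antagonist Grem1 (8, 5 and 6 TPM in embryoids, 0, 0 and 1 TPM in controls) rose. The ligands Bmp6 (1, 1 and 1 TPM in embryoids, 13, 15 and 15 TPM in controls) and Bmp7 and the targets Id3 (333, 377 and 383 TPM in embryoids, 999, 981 and 919 TPM in controls) and Id4 fell, whereas Id1, another target, was at 121, 142 and 131 TPM in embryoids, against 70, 68 and 66 TPM in controls (log2 fold change 0.94, under the fold threshold). In Hedgehog signalling, 3 of 13 tested genes were higher and 3 lower, with a median of -0.11 that turned to 0.10 after that scaling. The targets Gli1 (20, 22 and 17 TPM in embryoids, 1, 0 and 1 TPM in controls) and Ptch1 (39, 32 and 39 TPM in embryoids, 5, 7 and 6 TPM in controls) rose, and Gli3, which represses such targets in its short form, fell to 22, 13 and 26 TPM, against 54, 65 and 64 TPM. In WNT signalling, 8 of 28 tested genes were higher (2 with a pseudocount of 5, 4 with a filter above 5 TPM) and 5 lower, with Wnt8a, a ligand of the posterior embryo, at 4, 3 and 5 TPM in embryoids and at 0 in controls. FGF signalling gave 4 higher (7 after that scaling) and 2 lower of 20 tested, and Notch signalling 3 higher and 5 lower (3 after that scaling) of 19. Over all tested genes 8.03% were called higher and 8.75% lower, and the share of FGF genes called lower was near the latter. Spry1, a feedback inhibitor of FGF signals, fell to 14, 10 and 13 TPM in embryoids, against 51, 47 and 44 TPM in controls, and Hes5, a Notch target of neural progenitors, to 14, 15 and 25 TPM, against 44, 44 and 45 TPM.

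Most of the D7 difference was present a day later. In the same fit, 948 of the 1053 genes called higher and 891 of the 1148 called lower at D7 were called in that direction at D8, and the difference itself changed between the days for 273 genes (2.08% of those tested). Of the genes called at D7, 29 higher and 60 lower ones had a smaller difference at D8, and 60 higher and 28 lower ones a larger one. The call was opposite at D8 for 4 genes. Wnt7a, a WNT ligand of neural and surface tissue, was at 1, 1 and 3 TPM in D7 embryoids, against 6, 8 and 7 TPM in D7 controls, and at 11, 9 and 5 TPM in D8 embryoids, against 3, 3 and 3 TPM in D8 controls (change of the log2 difference 2.82, standard error 0.40, adjusted p = 0.00229 from limma). Masp1, a protease of the complement lectin pathway, was higher in embryoids at D7 (11, 11 and 12 TPM, against 3, 5 and 5 TPM) and lower at D8 (14, 16 and 19 TPM, against 36, 33 and 40 TPM). Chl1, a neural adhesion molecule, was at 2, 1 and 3 TPM in D7 embryoids, against 0 in D7 controls, and at 3, 2 and 2 TPM in D8 embryoids, against 7, 5 and 6 TPM in D8 controls. Mir1898 was listed at 5, 0 and 6 TPM in D7 embryoids and at 0 in D7 controls, and was reversed at D8, with values of a short gene that rounding and 1 library at 0 make uncertain.

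**Figure D5:**
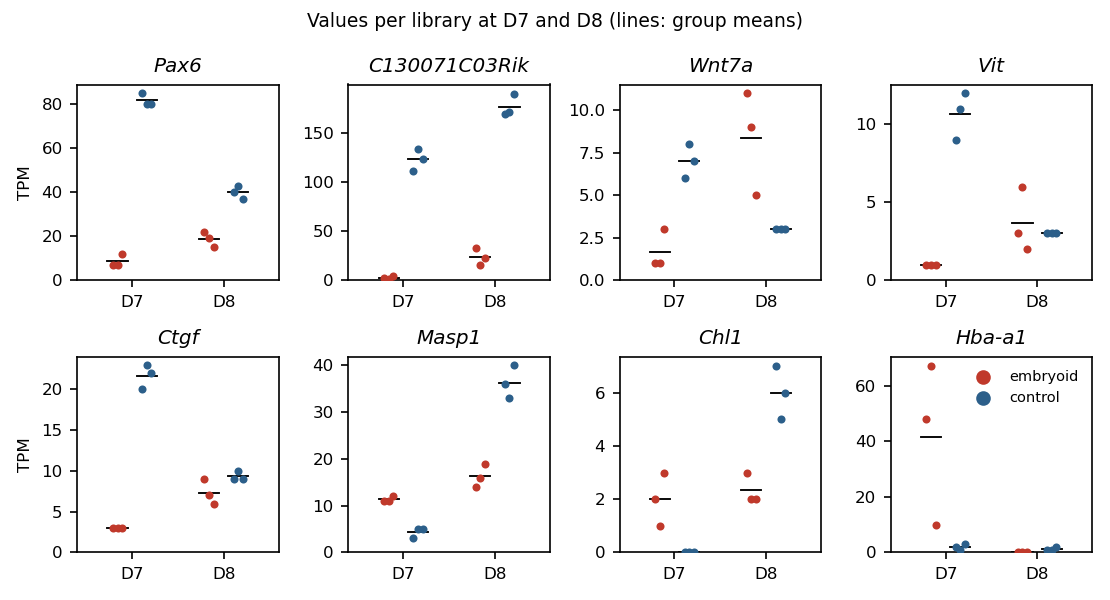
TPM of 8 genes in each library at D7 and D8, with embryoids in red to the left of controls in blue and lines at the group means of 3 libraries. Wnt7a, Masp1 and Chl1 change the order of the groups between the days, and Pax6 narrows from 7 to 12 TPM in embryoids and 80 to 85 TPM in controls at D7 to 15 to 22 TPM in embryoids and 37 to 43 TPM in controls at D8.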

How the data were processed

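Libraries of pooled RNA were sequenced as 75 bp single-end reads per the labels. The deposited table holds whole-number values that sum to 997897 to 998433 per library; they were treated as a score, namely TPM that the authors rounded to whole numbers, which was inferred from the values. The submitters' processing notes name STAR 2.6.1a, SAMtools 0.1.20, featureCounts, DESeq2 and mm10. Rounding makes values of 1 or 2 imprecise, and depth is unknown.

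Genes with a mean above 1 TPM in either D7 group were fitted on log2(TPM + 1) in limma 3.58.1 (R 4.3.3, statmod 1.5.0) with trended, robust empirical Bayes. All 12 libraries entered 1 fit with 4 group means of 3 libraries each, and the change of the difference from D7 to D8 was tested as an interaction. A call needed an adjusted p (Benjamini-Hochberg, over all tested genes) under 0.05 and a log2 fold change beyond 1 in either direction. The study's own DESeq2 test needs counts, which were not used here.

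The 79 gene lists, and the members, were chosen with earlier results of these data known. Genes named were, per list, up to 3 called in each direction by fold and up to 2 uncalled by level, the 15 largest changes each way without overlap between groups, the 10 largest differences in mean each way, the genes called oppositely at D8, those whose difference shrank most, and the Hox and purine genes. Genes in the study's figures were left out of the lists and the largest changes, though not of the choice by D8, which brought in Pax6, Gpx2 and Hba-a1. Replicate numbers are those of the sample titles, and numbers in some library names differ from them. Hba-a2, Mcidas and Tgoln2 were picked after their values were seen. Alternatives were another pseudocount, filter or scaling, the 6 D7 libraries alone, a replicate block and each D7 library left out. Applying them to the lists was chosen after seeing the data. No value column was left unmapped. Promoter sequences are from RefSeq (GRCm38.p6), with 3085 tested genes unmatched. Figures were drawn with matplotlib 3.10.9. Some results that met the naming rule are not reported here.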

Additional observations from a re-analysis of the deposited data

Results flagged for a closer look

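The naming rule itself took genes for a change between the days, so the count below is no measure of how common such changes are, and among all tested genes 2.08% changed. For 44 of the 460 genes picked, the difference between embryoids and controls changed between D7 and D8 by the interaction test in limma, with an adjusted p (Benjamini-Hochberg) under 0.05 and a change beyond 1 in either direction. Values in parentheses are the D8 difference minus the D7 difference, each embryoid over control, on the log2(TPM + 1) scale, so a positive value means that embryoids stood higher relative to controls at D8 than at D7.

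Positive changes were in Acta2 (2.48), Col1a1 (1.75), Col1a2 (2.78), Col3a1 (1.85), Ctgf (2.18), Dcn (2.15), Frzb (1.34), P4ha2 (1.34), Sfrp2 (1.13), Thbs1 (1.29) and Vit (2.67). Further positive changes were in 1700086L19Rik (1.68), Adssl1 (1.85), Apoe (1.20), C130071C03Rik (2.40), Chst1 (1.26), Dner (1.61), Epha3 (1.01), Fgf10 (1.01), Mir3093 (3.93), Ndnf (1.30), Pax6 (2.06), Spry1 (1.06), Tnni3 (1.94) and Wnt7a (2.82). Negative changes were in Calml4 (-1.06), Chl1 (-2.60), Emx1 (-1.73), Gmnc (-1.11), Lmo2 (-2.04), Nrp2 (-1.65), Reln (-1.93), Slc6a11 (-1.15) and Trp73 (-2.64). Further negative changes were in Arhgap24 (-1.05), Cd24a (-1.03), Esrp1 (-1.36), Gpx2 (-1.85), Hba-a1 (-4.72), Id1 (-1.12), Masp1 (-2.35), Mir1898 (-4.60), Msx2 (-1.59) and Ptpre (-1.92). Hba-a1 has a near-identical copy, and Mir1898 and Mir3093 are short genes listed at 0 in some libraries, so their values are uncertain. Dcn, the matrix proteoglycan decorin, was not called at D7.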

How the results depend on the processing

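None of the 296 named genes that were called turned its sign under an alternative that fitted it (244 of them with a filter above 5 TPM). Most of them were named for large changes in these same libraries, so a turn of sign was unlikely from the start. Among the uncalled named genes, 33 turned their sign under median-of-ratios scaling and 1 to 9 with a library left out. With a pseudocount of 5 instead of 1, 472 genes were called higher, 553 lower and 109 changed between the days. Of the 296 named genes that were called, 84 lost their call. With a filter above 5 TPM, 622 were higher and 169 changed. Median-of-ratios scaling gave 1220 higher and 861 lower over the same genes, and 1431 and 861 when the filter followed it, with 10 named genes losing a call and 12 gaining one. Leaving out 1 D7 library at a time gave 968 to 1057 higher, 1017 to 1298 lower and 204 to 350 changed genes. With the replicate number as a block, 1037 were higher and 1131 lower in the 6 D7 libraries, and 245 changed over all 12. By the numbers in the titles, same-numbered embryoid and control libraries deviated from their group means with correlations of -0.0326, -0.0749 and 0.0797. Embryoid and control libraries with different numbers gave correlations from -0.127 to 0.143. Whether the samples were prepared in pairs was not tested. The causes of these shifts were not tested.

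Values are rounded and without depth, and 414 of the higher and 230 of the lower genes had means under 5 TPM in both groups. A difference in line or clone cannot be told apart from the treatment. Each group has 3 libraries of pooled structures. The p-values set a difference against a spread within groups that was estimated over all 12 libraries and moderated across genes.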

Other observations

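Over all tested genes 8.03% were called higher and 8.75% lower. Of 332 tested Zfp zinc finger genes, 13 were lower and 3 higher, both under those shares, with a median log2 fold change of -0.48 beside -0.20 over all tested genes, and the 13 became 5 after median-of-ratios scaling and 7 without embryoid replicate 2. Of 39 tested clustered protocadherins, adhesion molecules of neurons that share sequence between copies, 12 were lower and none higher (5 lower with a filter above 5 TPM, 1 with a pseudocount of 5). Of 20 tested ephrins and Eph receptors, which guide cells and axons, 9 were lower and 4 higher. Of 206 tested solute carriers, 25 were lower and 16 higher, against 20 and 20 after median-of-ratios scaling and 9 and 8 with a pseudocount of 5.

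Housekeeping families showed few calls. Of 97 tested cytosolic ribosomal protein genes, 1 was higher and none lower, although 75 had every embryoid above every control, as did 19.4% of all tested genes. None of 78 mitochondrial ribosomal protein genes was called in limma, and 17 had every embryoid above and 15 every embryoid below the controls, as did 19.4% and 43.4% of all tested genes. Of 14 tested complement, coagulation and protease genes, 9 were higher and none lower (5 higher with a pseudocount of 5). Of these 14, 3 were listed at 0 in every control. Of 15 tested interferon response and antigen presentation genes, 4 were higher and 1 lower.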
